A study of Homo sapiens with 13 samples.

Results

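The transcripts of 10 regulators of the T lineage and of T cell leukemia were followed in FK866-sensitive and FK866-resistant leukemia cells: TCF7, LEF1, GATA3, BCL11B, RUNX1, RUNX3, LMO2, TAL1, MYB and RAG1. Every non-control probe whose gene name in the array design was 1 of these 10 was taken, which gave 18 of 34127 probes (10 of 25940 gene names). TCF7, BCL11B, RUNX3 and MYB had several probes each, as had RUNX1 with 5, and the other 5 genes had 1 probe each. All 18 probes were well above background on all 13 arrays, and all were among the 22751 probes that passed the filter on dim probes and were tested.

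CCRF-CEM cells, established from a T cell acute lymphoblastic leukemia, were used as the parental line (CEM PA) and as a derivative selected by stepwise exposure to FK866 (CEM RES), which the labels describe as resistant to 100 nM. FK866 blocks NAMPT, the enzyme that recycles nicotinamide to NAD+. CEM PA were mock-treated with DMSO (3 arrays) or exposed to 5 nM FK866 (2 arrays), and CEM RES were likewise mock-treated (4 arrays) or exposed to 5 nM FK866 (4 arrays), in every group for 48 h. According to the study's text the resistant cells were kept in FK866 during passage, and CEM RES given mock treatment had thus met the drug before. The labels call the arrays of a group biological replicates.

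T cell progenitors are instructed by Notch signals to switch on TCF7 and GATA3, and then BCL11B, which closes the other blood lineages to them. TCF7 and LEF1 bind the same DNA motif and act with or without beta-catenin, and RUNX factors bind DNA together with CBFB. In many T cell leukemias TAL1 and LMO2, which thymocytes normally silence, are joined with GATA3, RUNX1 and MYB in a self-sustaining circuit. RAG1 and RAG2 cut the antigen receptor genes of developing lymphocytes and mark the immature stage of such a cell.

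Signals are given below on a log2 scale after quantile normalization, with the replicates in the order of their numbers, and only values of the same probe are compared. The number of spots well above background ranged from 26457 to 33239 of 43118 per array, and 0 spots were saturated. All CEM PA arrays were scanned in sessions 1 and 2 and all CEM RES arrays in session 3, so scan session and cell line cannot be told apart, whereas each session held both treatments. All 12 T lymphoblast markers, CD3D, CD7 and CD1A among them, were well above background on all arrays, against 3 of 6 B lineage markers, 1 of the 5 myeloid markers on the array, 5 of 6 erythroid and 1 of 4 NK markers. The summed signal of the B lineage markers was 3589 to 4126 on mock-treated CEM PA arrays and 2214 to 3600 on mock-treated CEM RES arrays, with PAX5 well above background on 8 arrays and EBF1 on 0. That of the NK markers was 3006 to 3661 and 3351 to 6954, and that of the T lymphoblast markers 190028 to 200551 and 213885 to 232350, with CD3E (1.12 ± 0.19) and CD3G (1.20 ± 0.17) higher and CD5 (-1.96 ± 0.35) lower in CEM RES with mock. The part of these differences in the results below was not tested. The arrays measured bulk RNA, in which fewer cells with a transcript and less of it in each cell cannot be told apart.

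In mock-treated cells the 10 regulators did not move in 1 direction between the lines. TCF7, RAG1, BCL11B (probe 1) and MYB (probe 1) were higher in CEM RES than in CEM PA, by 2.39-fold to 4.27-fold, and LEF1 and both RUNX3 probes were lower, by 2.16-fold to 2.93-fold. BCL11B probe 2 and MYB probe 2 did not pass the test, with log2 fold changes of 0.26 and -0.15. The probes of RUNX1 went both ways, and GATA3, TAL1 and LMO2 did not pass the test. A difference is called below where limma's moderated test gave a Benjamini-Hochberg adjusted p under 0.05, and 12 of the 18 probes, from 7 genes, were called here, 8 higher and 4 lower. Of all probes tested 47.6% were called in this comparison, 24.9% higher and 22.7% lower. A gene with several probes can be called through any of them. With only the brightest probe per gene 4 of the 10 genes were called, where 47.7% of all genes were. With the mean of a gene's probes it was 6 of 10, where 46.9% of all genes were called. The median absolute log2 fold change was 1.00 over the 18 probes and 0.56 over all probes.

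In FK866-treated cells 12 of the 18 probes, from 8 genes, were called between the lines, 6 higher and 6 lower. Of all probes 36% were called, 18% in each direction. With only the brightest probe per gene 8 of the 10 genes were called, where 35.5% of all genes were. With the mean of a gene's probes it was 5 of 10, where 34.1% of all genes were called. The arrays of this comparison are other ones than those of the mock comparison. Calls of the same direction in both comparisons were made for 7 probes of 5 genes (both TCF7 probes, LEF1, RUNX1 probes 2 and 5, MYB probe 1 and RAG1), which is 38.9% of the 18 probes, where 27.9% of all probes were called in both with the same direction. As a share of the probes called with mock these were 58.3% of the members' and 58.6% of all, and as a share of those called with FK866 58.3% and 77.6%. The sign of the difference was the same in both comparisons for 17 of the 18 probes. Scaling to the 75th percentile in place of quantile normalization moved the median log2 fold change between the lines over all probes from 0.04 to 0.16 with mock and from 0.06 to 0.22 with FK866, and under that scaling 8 of 12 called member probes were higher with mock and 7 of 11 with FK866. Over all probes 4099 of 8186 calls with FK866 were higher in CEM RES under quantile normalization and 5503 of 9080 under the other scaling.

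**Figure D1:**
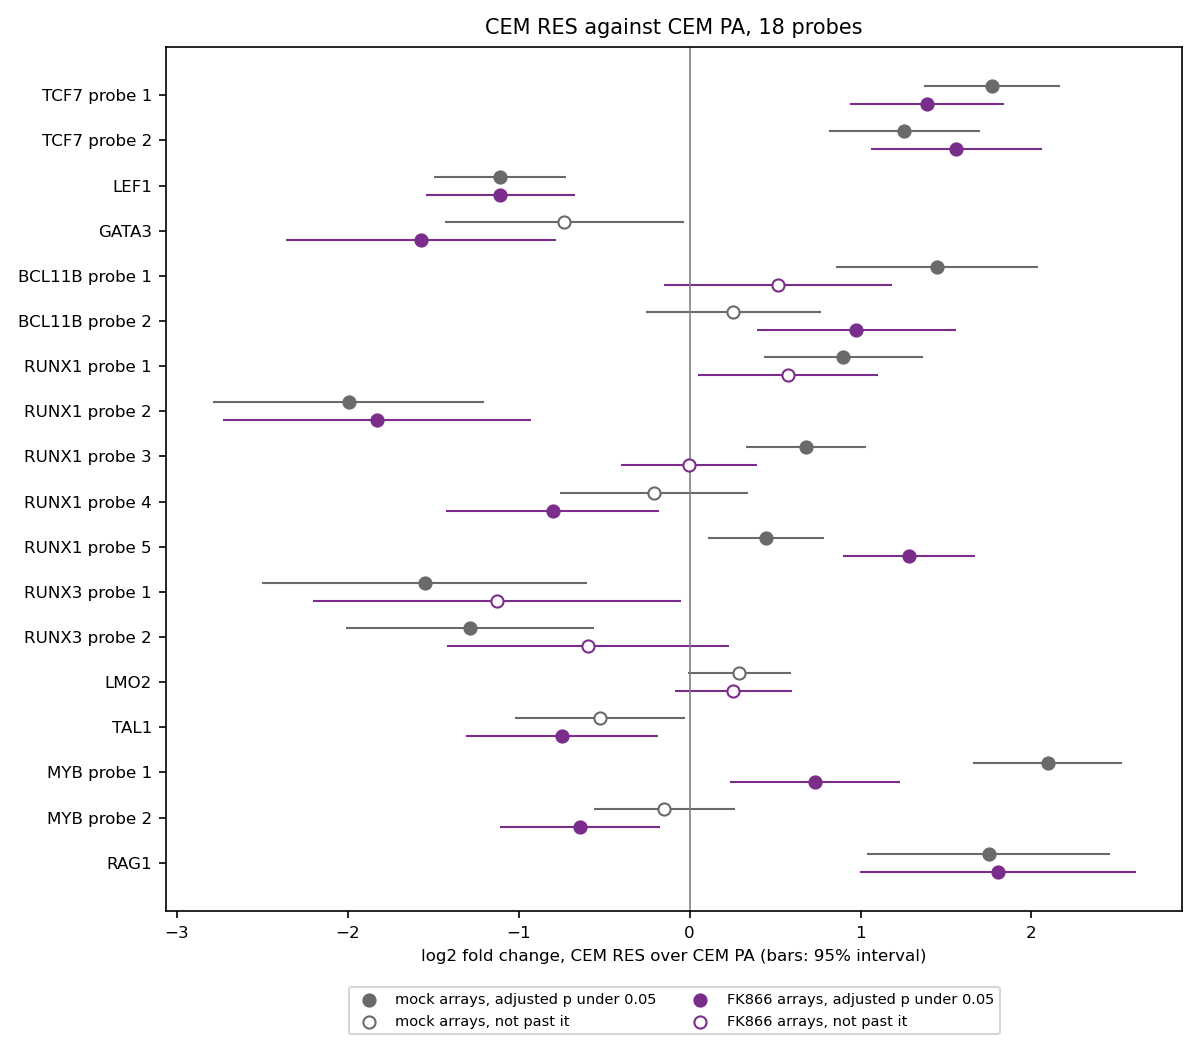
Log2 fold change of CEM RES over CEM PA (horizontal axis) for the 18 probes, with 95% intervals, on the mock arrays (grey, 4 against 3) and the FK866 arrays (purple, 4 against 2); filled points have an adjusted p under 0.05. TCF7, RAG1 and MYB probe 1 lie on the side of CEM RES, LEF1, RUNX3 and RUNX1 probe 2 on the side of CEM PA.

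TCF7 encodes TCF-1, the HMG-box factor that starts the T cell program. Its probe 1 (chr5:133478508-133478567 on hg19, plus strand) gave log2 signals of 9.97, 9.92 and 9.66 in mock-treated CEM PA, 9.86 and 10.06 in FK866-treated CEM PA, 11.88, 11.71, 11.28 and 11.60 in mock-treated CEM RES and 11.18, 11.70, 11.40 and 11.11 in FK866-treated CEM RES. Probe 2, chr5:133483237-133483296, closer to the 3′ end and spotted 10 times on each array, gave 12.94, 12.93 and 12.68 in mock-treated CEM PA, 12.62 and 12.71 in FK866-treated CEM PA, 14.24, 14.48, 13.72 and 13.99 in mock-treated CEM RES and 14.17, 14.66, 14.10 and 13.98 in FK866-treated CEM RES. On both probes every CEM RES array was above every CEM PA array. The line difference was 1.77 ± 0.18 (SE) for probe 1 (adjusted p = 1.90e-05) and 1.26 ± 0.20 for probe 2 (adjusted p = 3.84e-04) with mock. With FK866 it was 1.39 ± 0.21 and 1.56 ± 0.23 (adjusted p = 4.21e-04 and 3.79e-04). The 10 spots of probe 2 had an SD of 0.04 to 0.10 within an array, which measures the spread of spots and not that of cultures. Within a line the mock and FK866 arrays overlapped on both probes.

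LEF1, the close relative of TCF7 that binds the same sequence, went the opposite way. Its probe (chr4:108968746-108968805, minus strand) gave 16.80, 16.37 and 16.58 in mock-treated CEM PA, 16.94 and 16.42 in FK866-treated CEM PA, 15.54, 15.67, 15.23 and 15.45 in mock-treated CEM RES and 15.61, 15.48, 15.39 and 15.81 in FK866-treated CEM RES. All CEM RES arrays were below all CEM PA arrays with either treatment. The log2 fold change was -1.11 ± 0.18 with mock (95% interval -1.50 to -0.72, adjusted p = 3.59e-04) and -1.11 ± 0.20 with FK866 (adjusted p = 0.00139), that is 2.16-fold and 2.15-fold lower in CEM RES. Both TCF7 probes and LEF1 were called between the lines, in these directions, under every alternative setting run. None of these settings can tell line and scan session apart.

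The promoters of TCF7 and LEF1, and of RUNX3 and TAL1 further down, are shown as examples of genes called between the lines, RUNX3 with mock only and TAL1 with FK866 only. Other called genes, and other starts of TCF7, RUNX3 and TAL1, are not printed. They are the 250 bases before the transcription start in RefSeq's annotation of GRCh38.p14, read 5′ to 3′ on the strand of the gene, for 1 start of each gene, and 9 of the 10 genes had an entry (17 starts in all, none for LMO2). Capitals mark TGTGGT, the core RUNX motif, or its reverse complement ACCACA in LEF1 and RUNX3, and CTTATC, the reverse complement of the GATA motif GATAAG, in TAL1.
TCF7, chr5:134115363-134115612, plus strand: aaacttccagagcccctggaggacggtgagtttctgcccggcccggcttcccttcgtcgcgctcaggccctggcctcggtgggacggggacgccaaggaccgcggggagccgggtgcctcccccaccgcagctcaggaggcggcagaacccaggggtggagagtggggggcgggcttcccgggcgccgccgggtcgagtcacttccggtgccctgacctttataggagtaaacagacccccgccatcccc
LEF1, chr4:108166302-108166551, minus strand: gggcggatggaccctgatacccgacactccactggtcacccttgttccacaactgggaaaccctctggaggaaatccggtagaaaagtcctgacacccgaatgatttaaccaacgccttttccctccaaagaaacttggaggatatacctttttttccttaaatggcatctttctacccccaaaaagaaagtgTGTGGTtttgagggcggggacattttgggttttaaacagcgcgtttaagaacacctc
RUNX3, chr1:24965011-24965260, minus strand: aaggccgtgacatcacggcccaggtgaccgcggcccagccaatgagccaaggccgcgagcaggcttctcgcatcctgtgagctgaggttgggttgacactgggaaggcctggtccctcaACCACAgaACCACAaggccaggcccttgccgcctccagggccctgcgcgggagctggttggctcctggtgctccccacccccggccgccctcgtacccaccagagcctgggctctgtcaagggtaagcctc
TAL1, chr1:47232336-47232585, minus strand: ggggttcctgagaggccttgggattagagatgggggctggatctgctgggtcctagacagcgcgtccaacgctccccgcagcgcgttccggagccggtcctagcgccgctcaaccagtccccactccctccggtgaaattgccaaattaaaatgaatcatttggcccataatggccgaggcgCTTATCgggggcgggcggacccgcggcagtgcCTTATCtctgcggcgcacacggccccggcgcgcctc
Searched on both strands, the RUNX motif was found in 4 of the 17 windows, and in 11% of the 35116 promoter windows of the same length in the genome. These 4 were the LEF1 and RUNX3 windows printed here and 1 start each of GATA3 and TAL1 that is not printed. The GATA motif was found in 1 of the 17, the TAL1 window printed here, and in 5.65% of all. The TCF/LEF motif CTTTGA, with its reverse complement TCAAAG, was found in 1 of the 17, another start of GATA3, and in 11.2% of all. The TCF7 window printed here holds none of the 3 motifs. Nor do the windows of BCL11B, RUNX1, MYB and RAG1 or the other RUNX3 start, which are not printed. A match in these windows is a description of the letters and no measurement of binding.

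GATA3, the zinc-finger factor needed from the earliest T cell stage, was measured by 1 probe (chr10:8117072-8117131, plus strand), which gave 12.46, 12.46 and 12.56 in mock-treated CEM PA, 13.29 and 13.20 in FK866-treated CEM PA, 12.59, 11.64, 10.97 and 11.83 in mock-treated CEM RES and 12.10, 11.36, 11.23 and 12.01 in FK866-treated CEM RES. With FK866 every CEM RES array was below every CEM PA array, whereas with mock replicate 1 of CEM RES lay above all mock-treated CEM PA arrays. GATA3 was called with FK866, at -1.57 ± 0.36 (adjusted p = 0.00561, 2.97-fold lower), and with mock it had -0.73 ± 0.32 (95% interval -1.43 to -0.04, adjusted p = 0.0779). Without CEM RES mock replicate 1 the mock value was -1.01 and called (adjusted p = 0.00985), and without CEM PA FK866 replicate 1 the FK866 value of -1.53 was no longer called (adjusted p = 0.0510). The mock value was also called with normexp background (-0.82, adjusted p = 0.0237) and with array quality weights (-0.74, adjusted p = 0.0381). The difference between both line differences was -0.84 and did not pass the test (95% interval -1.89 to 0.22, adjusted p = 0.526).

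BCL11B, the zinc-finger factor of T cell commitment, had probes that differed in how they separated the lines. Probe 1 (chr14:99640298-99640357, minus strand) gave 6.94, 6.14 and 6.80 in mock-treated CEM PA, 7.74 and 7.06 in FK866-treated CEM PA, 8.19, 8.34, 7.49 and 8.29 in mock-treated CEM RES and 7.91, 8.10, 7.51 and 8.15 in FK866-treated CEM RES. Probe 2, chr14:99636021-99636080, 4.28 kb further toward the 3′ end, gave 13.63, 12.88 and 13.31 in mock-treated CEM PA, 12.96 and 12.44 in FK866-treated CEM PA, 13.86, 13.51, 13.11 and 13.63 in mock-treated CEM RES and 13.82, 13.47, 13.42 and 13.98 in FK866-treated CEM RES. With mock the lines were apart on probe 1 and overlapped on probe 2, and with FK866 they overlapped on probe 1 and were apart on probe 2. The line difference with mock was 1.45 ± 0.27 on probe 1 (adjusted p = 0.00102) and 0.26 ± 0.24 on probe 2 (adjusted p = 0.394). With FK866 it was 0.52 ± 0.31 (adjusted p = 0.211) and 0.97 ± 0.27 (adjusted p = 0.0140). The last call was lost without CEM PA FK866 replicate 2 (0.72, adjusted p = 0.155).

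**Figure D2:**
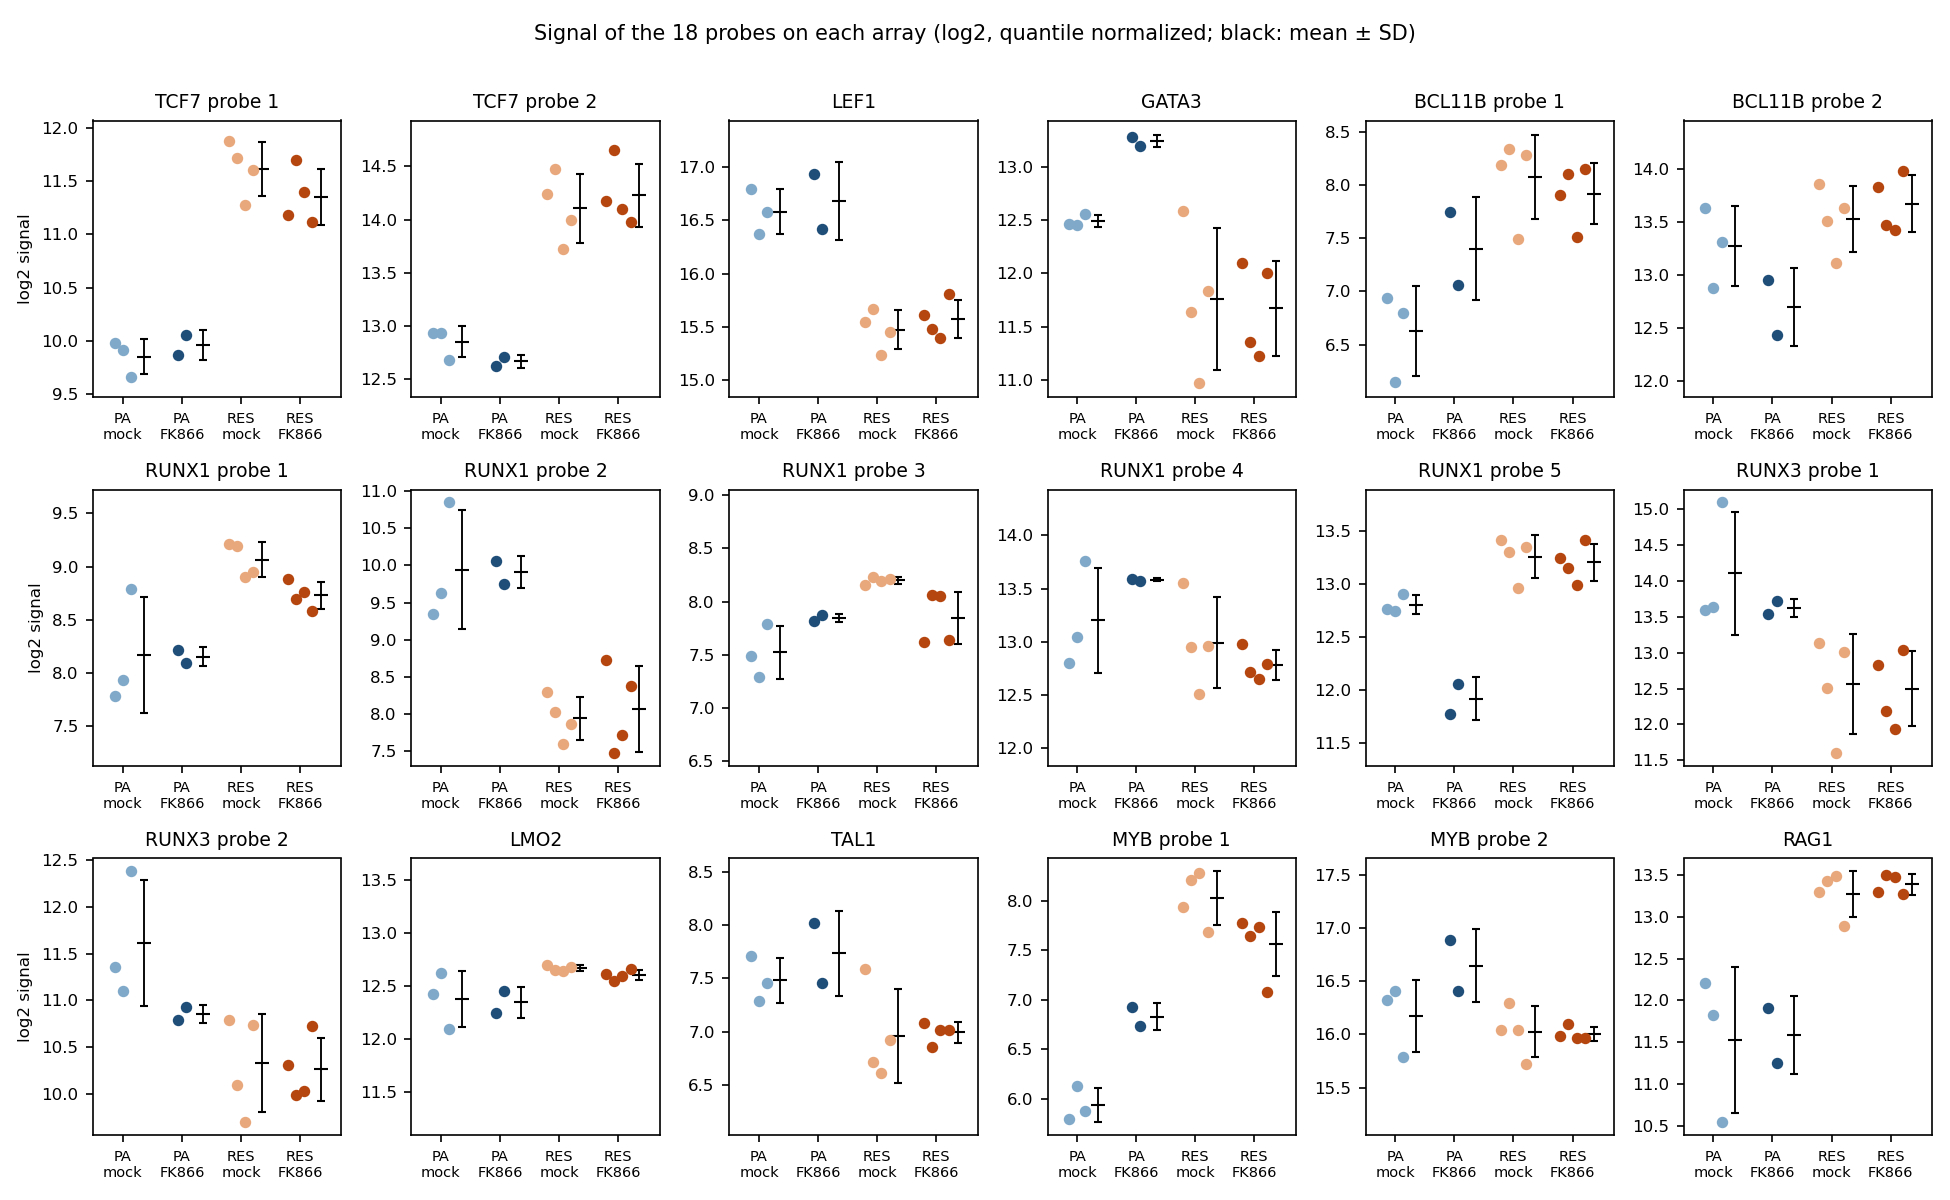
Log2 signal (vertical axis, a scale of its own in each panel) of the 18 probes on each of the 13 arrays by group, 1 point per array in the order of the replicate numbers, with the mean ± SD in black beside the points. The CEM RES arrays lie above all CEM PA arrays for TCF7 and RAG1 and below them for LEF1, and mock-treated CEM PA replicate 3 stands apart for RUNX3, RUNX1 probe 2 and RAG1.

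Whether probes of 1 gene differed in their line difference was tested for all 6585 pairs of probes of 1 gene on the array (4088 genes), a test chosen after the values had been seen. For the 14 pairs among the members, 10 were called with mock, where 46.4% of all pairs were called, and 9 with FK866, where 36.2% were. Most of these pairs, and most of the calls, are of RUNX1, whose pairs share probes and are not independent. TCF7 probe 1 rose by 0.51 ± 0.14 more than probe 2 between the lines with mock (adjusted p = 0.0120), in the same direction as probe 2, and with FK866 the difference was -0.17 (95% interval -0.53 to 0.18). BCL11B probe 1 rose by 1.19 ± 0.18 more than probe 2 with mock (adjusted p = 3.11e-04), and with FK866 the difference had the opposite sign and was not called (-0.46 ± 0.21, adjusted p = 0.102). The RUNX3 probes did not differ detectably in either comparison, with -0.26 with mock (95% interval -0.68 to 0.15) and -0.53 ± 0.21 with FK866 (adjusted p = 0.0726).

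RUNX1 encodes the RUNX factor of blood stem cells and early T cells, made from several promoters and with alternative 3′ ends. Its 5 probes lie over 71.4 kb of chromosome 21, minus strand, and the first 30 of the 60 bases of each are shown 5′ to 3′, since the results turn on which probe is read.
RUNX1 probe 1, chr21:36231787-36231846: ttcacaaacccaccgcaagtcgccacctac
RUNX1 probe 2, chr21:36193583-36193642: atatttagcatggatcccggtacactttca
RUNX1 probe 3, chr21:36171601-36171660: tttcacctggacgtgccagcggcatgacaa
RUNX1 probe 4, chr21:36164083-36164142: ggaaagcaaacaggaagattcccggaggga
RUNX1 probe 5, chr21:36160391-36160450: cttctttctccctggtacaaacgtatggaa
The array design assigns probes 1 and 2 to the RefSeq transcript of the short form RUNX1a, which lacks the C-terminal transactivating part, and probes 3 to 5 to that of a longer form. Which exon each probe lies in, and which other RUNX1 forms it reads, was not analysed here. The assignment thus does not make probe 1 or any other probe specific to that form. The longest run of bases that any member probe shared with a probe of another gene was 15.

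RUNX1 probe 2 fell most between the lines. It gave 9.35, 9.63 and 10.85 in mock-treated CEM PA, 10.06 and 9.76 in FK866-treated CEM PA, 8.29, 8.03, 7.60 and 7.87 in mock-treated CEM RES and 8.73, 7.47, 7.72 and 8.38 in FK866-treated CEM RES, and no CEM RES array reached the lowest CEM PA array. The log2 fold change was -2.00 ± 0.37 with mock (adjusted p = 8.85e-04, 3.99-fold lower) and -1.83 ± 0.41 with FK866 (adjusted p = 0.00498). The FK866 call was lost without CEM PA FK866 replicate 1 (-1.68, adjusted p = 0.0561).

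Probe 5, nearest the 3′ end, rose. It gave 12.76, 12.75 and 12.90 in mock-treated CEM PA, 11.77 and 12.06 in FK866-treated CEM PA, 13.41, 13.30, 12.96 and 13.34 in mock-treated CEM RES and 13.25, 13.15, 12.99 and 13.41 in FK866-treated CEM RES. The CEM RES arrays lay above those of CEM PA with either treatment, with the widest gap on the FK866 arrays. The difference was 0.45 ± 0.16 with mock (adjusted p = 0.0317) and 1.28 ± 0.18 with FK866 (adjusted p = 2.42e-04). The mock call was made under 17 of 25 alternatives and was lost, with values from 0.39 to 0.43, without CEM PA mock replicate 1 or 2 or without CEM RES mock replicate 1, 2 or 4. It was also lost with no filter (adjusted p = 0.0515), only the compared groups (adjusted p = 0.0672) and scan session as a block (adjusted p = 0.0502).

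Probe 1 gave 7.78, 7.93 and 8.79 in mock-treated CEM PA, 8.21 and 8.09 in FK866-treated CEM PA, 9.21, 9.19, 8.90 and 8.95 in mock-treated CEM RES and 8.88, 8.69, 8.76 and 8.58 in FK866-treated CEM RES. It was higher in CEM RES by 0.90 ± 0.21 with mock (adjusted p = 0.00447) and had 0.57 ± 0.24 with FK866 (adjusted p = 0.0831). Probe 3 gave 7.49, 7.29 and 7.79 in mock-treated CEM PA, 7.82 and 7.87 in FK866-treated CEM PA, 8.16, 8.24, 8.20 and 8.21 in mock-treated CEM RES and 7.62, 8.06, 8.05 and 7.64 in FK866-treated CEM RES. It was higher with mock by 0.68 ± 0.16 (adjusted p = 0.00437), and with FK866 the lines overlapped (-0.40 to 0.40 as the 95% interval). Probe 4 gave 12.80, 13.05 and 13.76 in mock-treated CEM PA, 13.59 and 13.57 in FK866-treated CEM PA, 13.55, 12.95, 12.51 and 12.96 in mock-treated CEM RES and 12.98, 12.71, 12.65 and 12.79 in FK866-treated CEM RES. The lines overlapped with mock (-0.21, 95% interval -0.76 to 0.34) and were apart with FK866, at -0.80 ± 0.29 (adjusted p = 0.0457), a call made under 14 of 26 alternatives. Among the arrays, it was lost without either CEM PA FK866 replicate, without any CEM RES FK866 replicate, without CEM PA mock replicate 2 and without CEM RES mock replicate 2 or 4, with values from -0.87 to -0.76.

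Between the lines RUNX1 probe 2 thus stood against its neighbours. It fell relative to probe 1 by 2.90 ± 0.26 with mock and 2.41 ± 0.30 with FK866 (adjusted p = 1.03e-05 and 1.55e-04 over all pairs). Probe 2 minus probe 5 changed by -2.45 ± 0.33 and -3.12 ± 0.38 (adjusted p = 1.46e-04 and 1.23e-04). Probe 4 minus probe 5 changed by -0.66 ± 0.22 with mock (adjusted p = 0.0259), and by -2.08 ± 0.24 with FK866 (adjusted p = 1.05e-04). Probes 1 and 3 did not differ detectably with mock (0.22, 95% interval -0.23 to 0.67). Averaged over its 5 probes, RUNX1 had a line difference of -0.04 with mock and -0.16 with FK866.

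**Figure D3:**
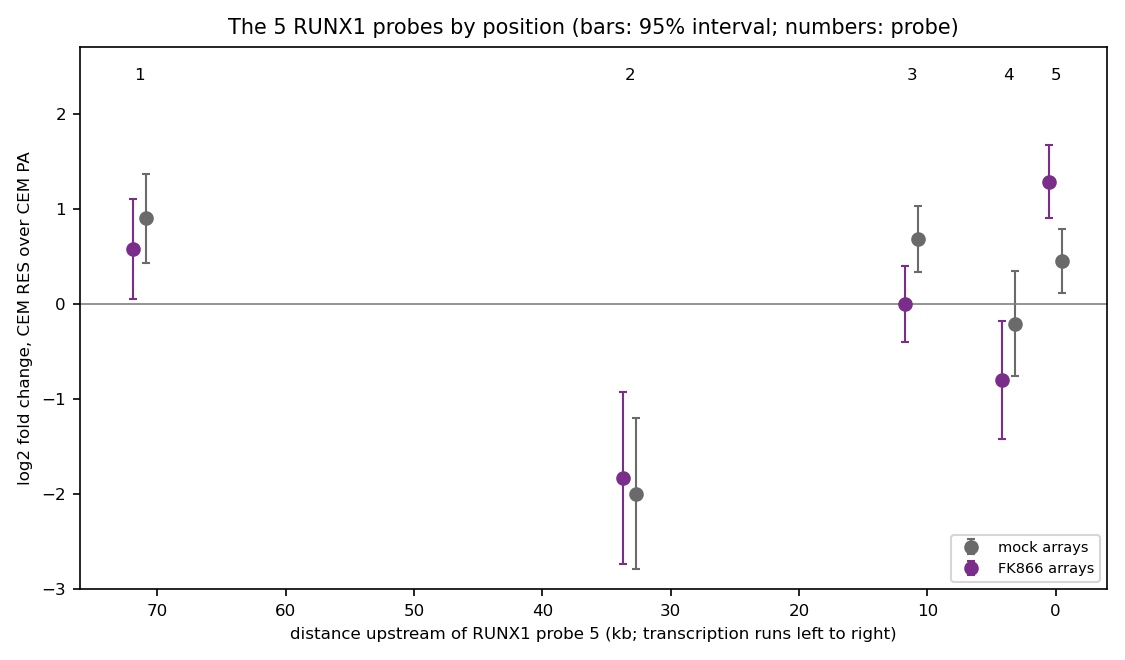
Log2 fold change of CEM RES over CEM PA (vertical axis, bars are 95% intervals) for the 5 RUNX1 probes against their distance upstream of probe 5 in kb, on mock (grey) and FK866 (purple) arrays. Probe 2, at 33.2 kb, lies at -2.00 and -1.83, and probe 5 at 0.45 and 1.28.

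RUNX3 encodes the RUNX factor of cytotoxic T cells. Probe 1 (chr1:25227538-25227597, minus strand) gave 13.59, 13.63 and 15.10 in mock-treated CEM PA, 13.53 and 13.72 in FK866-treated CEM PA, 13.13, 12.50, 11.59 and 13.01 in mock-treated CEM RES and 12.83, 12.19, 11.94 and 13.04 in FK866-treated CEM RES. Probe 2, chr1:25226333-25226392, gave 11.36, 11.10 and 12.38 in mock-treated CEM PA, 10.79 and 10.93 in FK866-treated CEM PA, 10.79, 10.10, 9.69 and 10.74 in mock-treated CEM RES and 10.31, 9.98, 10.03 and 10.72 in FK866-treated CEM RES. Mock-treated CEM PA replicate 3 was the brightest array on both probes, and without it the remaining mock arrays of the lines were still apart. The log2 fold change with mock was -1.55 ± 0.44 on probe 1 (adjusted p = 0.0116) and -1.29 ± 0.33 on probe 2 (adjusted p = 0.00744). Without CEM PA mock replicate 3 probe 1 fell by 1.05 and was no longer called (adjusted p = 0.0596). With FK866 the arrays of the lines did not overlap on either probe, yet neither was called, with -1.13 ± 0.50 (adjusted p = 0.0951) and -0.60 ± 0.38 (adjusted p = 0.243). With the replicate number as a block probe 1 was called there too (-1.38, adjusted p = 0.0306).

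TAL1 is the basic helix-loop-helix factor most often activated in T cell leukemia, and LMO2 the LIM protein that bridges it to GATA factors. The TAL1 probe (chr1:47682418-47682477, minus strand) gave 7.71, 7.28 and 7.46 in mock-treated CEM PA, 8.02 and 7.45 in FK866-treated CEM PA, 7.59, 6.72, 6.61 and 6.92 in mock-treated CEM RES and 7.08, 6.85, 7.02 and 7.02 in FK866-treated CEM RES. With mock the lines overlapped through CEM RES replicate 1, and TAL1 was called with FK866 only, at -0.74 ± 0.26 (adjusted p = 0.0403), against -0.53 ± 0.23 with mock (adjusted p = 0.0755). The difference between both was -0.22 (95% interval -0.97 to 0.53, adjusted p = 0.842). The FK866 call was made under 15 of 26 alternatives. It was lost without CEM PA FK866 replicate 1 (-0.46, adjusted p = 0.353), and without CEM PA mock replicate 3, any CEM RES FK866 replicate or CEM RES mock replicate 4, with values from -0.78 to -0.70. It was also lost with 75th percentile scaling (-0.61, adjusted p = 0.0928), normexp background (-0.50, adjusted p = 0.0604), no filter (adjusted p = 0.0685) and scan session as a block (adjusted p = 0.0568). In turn, without CEM RES mock replicate 1 the mock value was -0.74 and called (adjusted p = 0.00609).

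LMO2 varied little. Its probe (chr11:33880243-33880302, minus strand, 10 spots per array) gave 12.42, 12.62 and 12.10 in mock-treated CEM PA, 12.25 and 12.45 in FK866-treated CEM PA, 12.70, 12.65, 12.64 and 12.68 in mock-treated CEM RES and 12.62, 12.55, 12.59 and 12.66 in FK866-treated CEM RES. The CEM RES arrays lay within 12.55 to 12.70 and above all CEM PA arrays of the same treatment. The line difference was 0.29 ± 0.14 with mock (adjusted p = 0.105) and 0.26 ± 0.16 with FK866 (adjusted p = 0.227), where without CEM PA mock replicate 2 the mock value was 0.41 and called (adjusted p = 0.0430). Over all members, the arrays of the lines did not overlap for 13 of 18 probes with mock and 16 of 18 with FK866, where this held for 48.8% and 57.8% of all probes.

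MYB, the factor that keeps blood progenitors proliferating, had probes that parted. The first 30 bases of each are shown because only the first separated the lines with mock.
MYB probe 1, chr6:135516143-135516202, plus strand: gccaactgggatggctccttgtgctttgca
MYB probe 2, chr6:135540223-135540282, plus strand: atgcaagatggccagcactgaacttttgag
The array design lists probe 1 for an Ensembl transcript and probe 2, 24.1 kb further on, for the RefSeq transcript. Probe 1 gave 5.80, 6.13 and 5.88 in mock-treated CEM PA, 6.93 and 6.73 in FK866-treated CEM PA, 7.94, 8.21, 8.28 and 7.69 in mock-treated CEM RES and 7.78, 7.65, 7.74 and 7.08 in FK866-treated CEM RES. Here every CEM RES array was brighter than every CEM PA array, the FK866-treated CEM PA arrays lay above the mock ones, and the difference was 2.09 ± 0.20 with mock (adjusted p = 1.15e-05, 4.27-fold, the largest of the 18) and 0.73 ± 0.23 with FK866 (adjusted p = 0.0257). Probe 2 gave 16.33, 16.41 and 15.79 in mock-treated CEM PA, 16.89 and 16.41 in FK866-treated CEM PA, 16.05, 16.30, 16.04 and 15.72 in mock-treated CEM RES and 15.98, 16.10, 15.96 and 15.97 in FK866-treated CEM RES. The lines overlapped with mock (-0.15, 95% interval -0.56 to 0.26), and with FK866 CEM RES was lower by a log2 fold change of -0.64 ± 0.22 (adjusted p = 0.0350).

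Both MYB probes were thus called with FK866 in opposite directions. Probe 1 minus probe 2 changed between the lines by 2.24 ± 0.21 with mock and 1.37 ± 0.24 with FK866 (adjusted p = 1.14e-05 and 0.00109 over all pairs), and both were called under all 16 alternatives run. The FK866 call of probe 2 was made under 17 of 26 alternatives and was lost with the replicate number as a block (-0.54, adjusted p = 0.0722), without CEM PA FK866 replicate 1 (-0.40, adjusted p = 0.331) and without CEM RES FK866 replicate 1, 3 or 4 (-0.63 each). It was also lost with 75th percentile scaling (-0.51, adjusted p = 0.0554), no filter (adjusted p = 0.0596), the deposited table (-0.585, adjusted p = 0.0552) and scan session as a block (adjusted p = 0.0503). The FK866 call of probe 1 was made under 20 of 25 and was lost without CEM PA FK866 replicate 1 (0.82, adjusted p = 0.0833) or 2 (0.63, adjusted p = 0.164) and without CEM RES FK866 replicate 1, 2 or 3 (0.66 to 0.70).

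RAG1, the catalytic subunit of the V(D)J recombinase, was higher in CEM RES. Its probe (chr11:36601124-36601183, plus strand) gave 12.21, 11.82 and 10.54 in mock-treated CEM PA, 11.91 and 11.25 in FK866-treated CEM PA, 13.29, 13.42, 13.49 and 12.88 in mock-treated CEM RES and 13.30, 13.50, 13.48 and 13.27 in FK866-treated CEM RES. The lowest CEM RES array was above the highest CEM PA array, and mock-treated CEM PA replicate 3 was the lowest of all. The difference was 1.75 ± 0.33 with mock (adjusted p = 0.00100, 3.37-fold) and 1.80 ± 0.37 with FK866 (adjusted p = 0.00288, 3.49-fold), called under every alternative run. RAG2, its partner in the recombinase, was higher in CEM RES as well, by 1.97 ± 0.35 with mock and 2.41 ± 0.39 with FK866 (adjusted p = 0.000673 and 0.000706).

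Over the 18 probes the median absolute log2 fold change with FK866 was 0.35 in CEM PA and 0.12 in CEM RES. Between the lines it was 1.00 with mock, and the medians over all probes were 0.25, 0.14 and 0.56. On most probes the CEM PA change was smaller in size than the mock line difference. BCL11B probe 2 and RUNX1 probe 5 were among the exceptions. The CEM PA values rest on 2 FK866 arrays, and line cannot be told apart from scan session. In CEM PA 1 of the 18 probes was called, RUNX1 probe 5, where 1.53% of all probes were called and 0.418% were called lower. It fell by 0.89 ± 0.19 on the log2 scale (95% interval -1.29 to -0.48, adjusted p = 0.0373), and both FK866 arrays lay below all 3 mock arrays. Within scan session 1 the difference was -0.99 and within session 2 it was -0.77. The call was made under 12 of 25 alternatives, of which slide as a block compares only 1 mock and 1 FK866 array in CEM PA (-0.99). It was lost without any 1 of the 5 CEM PA arrays, with values from -1.02 to -0.74, and also without CEM RES FK866 replicate 1 or 2 or CEM RES mock replicate 2 or 4, at -0.89 each.

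Of the probes not called in CEM PA, MYB probe 1 had a log2 fold change of 0.89 ± 0.24 with FK866 (adjusted p = 0.0933) and BCL11B probe 1 one of 0.77 ± 0.32 (adjusted p = 0.293). The study used a double threshold, a p under 0.05 before adjustment and a log2 change larger than 0.75 in size. Both values passed it, as did RUNX1 probe 5, so that 3 of 18 probes passed it against 6.69% of all probes. With the replicate number as a block both were called, at 0.87 (adjusted p = 0.0495) for MYB probe 1 and 0.86 (adjusted p = 0.0262) for BCL11B probe 1, and 5.35% of all probes were called in that fit. GATA3 had 0.75 ± 0.38 with groups that did not overlap (adjusted p = 0.409), and RUNX3 probe 2 had -0.76 ± 0.40 (adjusted p = 0.425). The groups did not overlap for 6 of 18 probes, and for 34.8% of all probes. TCF7, LEF1, LMO2 and RAG1 had log2 fold changes from -0.18 to 0.11.

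In CEM RES 0 of the 18 probes were called with FK866, and 0 of all probes (0%) were. Before adjustment, limma gave a p under 0.05 for 2 member probes, RUNX1 probe 3 with -0.36 ± 0.15 and MYB probe 1 with -0.47 ± 0.19, where 5.15% of all probes passed. The groups did not overlap for RUNX1 probes 1 and 3, which is 2 of 18 probes against 2.91% of all. The median absolute log2 fold change of the 18 probes was 0.12 in CEM RES and 0.35 in CEM PA, against 0.14 and 0.25 over all probes.

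**Figure D4:**
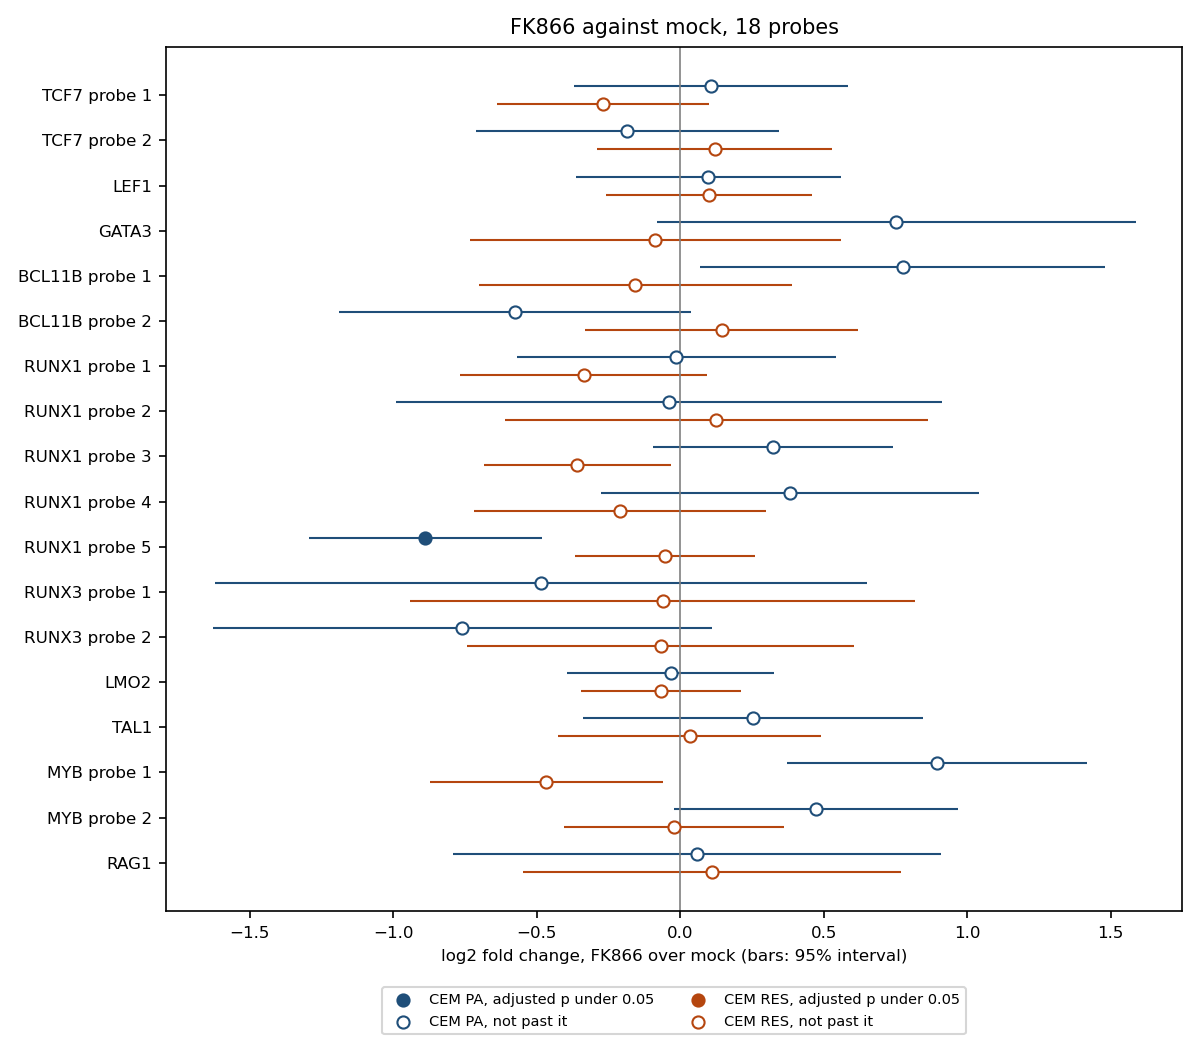
Log2 fold change of FK866 over mock (horizontal axis) for the 18 probes with 95% intervals, in CEM PA (blue, 2 arrays against 3) and CEM RES (orange, 4 against 4). RUNX1 probe 5 in CEM PA is the 1 filled point (adjusted p under 0.05), at -0.89.

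The difference between the responses of CEM RES and CEM PA was called for 0 of 18 probes (0.413% of all probes were called), with 4 member probes at an unadjusted p under 0.05, where 12.1% of all passed. The values were -1.36 ± 0.30 for MYB probe 1 (adjusted p = 0.0879), -0.93 ± 0.41 for BCL11B probe 1 (adjusted p = 0.386), 0.83 ± 0.24 for RUNX1 probe 5 (adjusted p = 0.170) and -0.68 ± 0.24 for RUNX1 probe 3 (adjusted p = 0.294). With the replicate number as a block 2 probes were called, MYB probe 1 (-1.33, adjusted p = 0.0449) and BCL11B probe 1 (-1.02, adjusted p = 0.0407), and the calls over all probes rose from 94 to 486 (2.14%). The interval of LEF1 was -0.58 to 0.59 and that of LMO2 -0.49 to 0.42, whereas the intervals of RUNX3 probe 1 and RUNX1 probe 2 spanned -1.01 to 1.86 and -1.04 to 1.37.

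Around the members, 98 further genes in 7 lists (partners, T-lineage factors, leukemia factors, recombination, and targets of TAL1, of TCF and LEF and of MYB) were read by their brightest kept probe, and 82 were tested. With mock 25 were higher and 26 lower in CEM RES, where 47.4% of all genes were called. With FK866 20 were higher and 22 lower, where 35.4% of all genes were called. None was called for FK866 against mock in either line (0 of 82 each, limma) or for the difference between the responses. Of all genes 0.983% were called for FK866 in CEM PA, 0% in CEM RES and 0.193% for the difference. Among 32 tested T-lineage factors 7 were higher and 15 lower with mock, or 68.8% called against 47.4% of all genes, with a median log2 fold change of -0.39 against 0.04 over all genes.

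The largest falls among the T-lineage factors with mock were those of NFATC1 (-3.15 ± 0.44), TOX2 (-3.03 ± 0.29), the HLH inhibitor ID1 (-2.88 ± 0.23) and KLF2 (-2.76 ± 0.23), with adjusted p from 3.98e-06 to 0.000141. TBX21 was well above background on 2 of 3 mock-treated CEM PA arrays and on none of the mock-treated CEM RES arrays, and was at least 1.36-fold lower there (adjusted p = 0.00745). TCF7L2, another TCF factor, rose by 1.90 ± 0.20, NFATC2 by 1.72 ± 0.20, IKZF1, which encodes Ikaros, by 1.69 ± 0.29, the HLH inhibitor ID2 by 1.34 ± 0.30 and EOMES by 1.20 ± 0.28, with adjusted p from 2.06e-05 to 0.00440. In FK866-treated cells NFATC1, TOX2, ID1, KLF2, TCF7L2, NFATC2, IKZF1 and ID2 were called in the same directions, and EOMES had 0.43 and was not (adjusted p = 0.319).

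Of 13 partners of the members 4 were higher and 3 lower with mock, 53.8% called against 47.4% of all genes, and 2 higher and 1 lower with FK866, 23.1% against 35.4%. EP300, the acetyltransferase recruited by MYB and RUNX factors, was higher by 2.08 ± 0.33, LDB1, which joins LMO2 complexes, by 0.98 ± 0.16 and the TCF corepressor TLE1 by 0.82 ± 0.23. TCF3, the E protein that pairs with TAL1, was lower, with -0.89 ± 0.24, as were TLE3 (-0.72 ± 0.25) and TLE2 (-0.68 ± 0.20), with adjusted p of the 3 from 0.00928 to 0.0289. With FK866 EP300, RAG2 and TLE3 were called, and LDB1 (0.32), TLE1 (0.55), TCF3 (-0.38) and TLE2 (-0.45) were not, with adjusted p from 0.123 to 0.299. CBFB, the common partner of RUNX1 and RUNX3, had 0.21 ± 0.15 (adjusted p = 0.259).

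Among 15 tested leukemia factors 5 were higher and 3 lower with mock, 53.3% called against 47.4% of all genes, and 4 higher and 3 lower with FK866, 46.7% against 35.4%. NKX2-5, a homeobox factor activated by translocation in some T cell leukemias, had a mean log2 signal of 15.14 ± 0.16 (SD, n = 3) in mock-treated CEM PA and 15.91 ± 0.27 (SD, n = 4) in mock-treated CEM RES and was higher by 0.76 ± 0.16 in limma (adjusted p = 0.00233). The chromatin protein PHF6 rose by 2.95 ± 0.35, HOXA9 by 1.97 ± 0.31 and HOXA10 by 1.33 ± 0.31, and HOXA5, well above background on 2 of 3 mock-treated CEM PA arrays, by 2.85 ± 0.32. WT1 (-3.11 ± 0.34), HOXA13 (-2.00 ± 0.68) and ETV6 (-1.19 ± 0.21) were lower, with adjusted p from 2.52e-05 to 0.0289. With FK866 HOXA10 (0.72, adjusted p = 0.125), HOXA13 (-0.54, adjusted p = 0.620) and ETV6 (-0.64, adjusted p = 0.0531) were not called. LYL1, a relative of TAL1, had 0.04 ± 0.26 with mock (adjusted p = 0.905) and -0.89 ± 0.29 with FK866 (adjusted p = 0.0316), and LMO1 had 0.00 ± 0.23 and 0.03 ± 0.26. TLX1, TLX3 and TAL2 were well above background on 3, 0 and 2 of the 13 arrays and were not tested.

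In the recombination list 4 of 10 tested genes were higher and 3 lower with mock, 70% called against 47.4% of all genes, and 3 higher and 2 lower with FK866, 50% against 35.4%. Beside RAG2, the nonhomologous end-joining genes PRKDC (0.86 ± 0.33) and NHEJ1 (0.68 ± 0.23) and the RAG cofactor HMGB1 (0.84 ± 0.16) were higher, and HMGB2 (-1.07 ± 0.15) and XRCC4 (-0.67 ± 0.15) lower. With FK866 NHEJ1 had the other sign (-0.20, adjusted p = 0.576) and XRCC4 had -0.24 (adjusted p = 0.304), neither called. PTCRA, the surrogate alpha chain of the pre-T cell receptor, was lower, with -1.24 ± 0.22 with mock and -1.42 ± 0.25 with FK866 (adjusted p = 0.000641 and 0.00102). DNTT, the terminal transferase of immature lymphocytes, was well above background on 0 of 13 arrays.

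The target lists were short. For TAL1, 2 of 5 targets were higher with mock, among them ALDH1A2 (1.03 ± 0.32), and TRIB2 was lower (-0.96 ± 0.22), 60% called against 47.4% of all genes. With FK866 all 5 were called (35.4% of all genes were), 4 higher, ALDH1A2 (1.07 ± 0.36), ARID5B (0.71 ± 0.18) and CDK6 (0.49 ± 0.16) among them, and TRIB2 lower (-1.37 ± 0.25). For TCF and LEF, 3 of 7 targets were tested, of which AXIN2, the feedback inhibitor of Wnt signalling, was lower (-0.90 ± 0.22, adjusted p = 0.00549) and ZNRF3 (1.06 ± 0.35) and RNF43 (0.61 ± 0.21) were higher. With FK866 AXIN2 was called (-0.86 ± 0.25), and ZNRF3 (0.56, adjusted p = 0.295) and RNF43 (0.62, adjusted p = 0.0589) were not. For these 3 targets, 100% were called with mock against 47.4% of all genes, and 33.3% with FK866 against 35.4%. For MYB, the cyclin genes CCNA1 (1.45 ± 0.36) and CCNB1 (0.60 ± 0.14) were higher, with either treatment, and the other 3 of 5 tested targets were not called in either comparison. This was 40% called with either treatment, against 47.4% of all genes with mock and 35.4% with FK866.

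**Figure D5:**
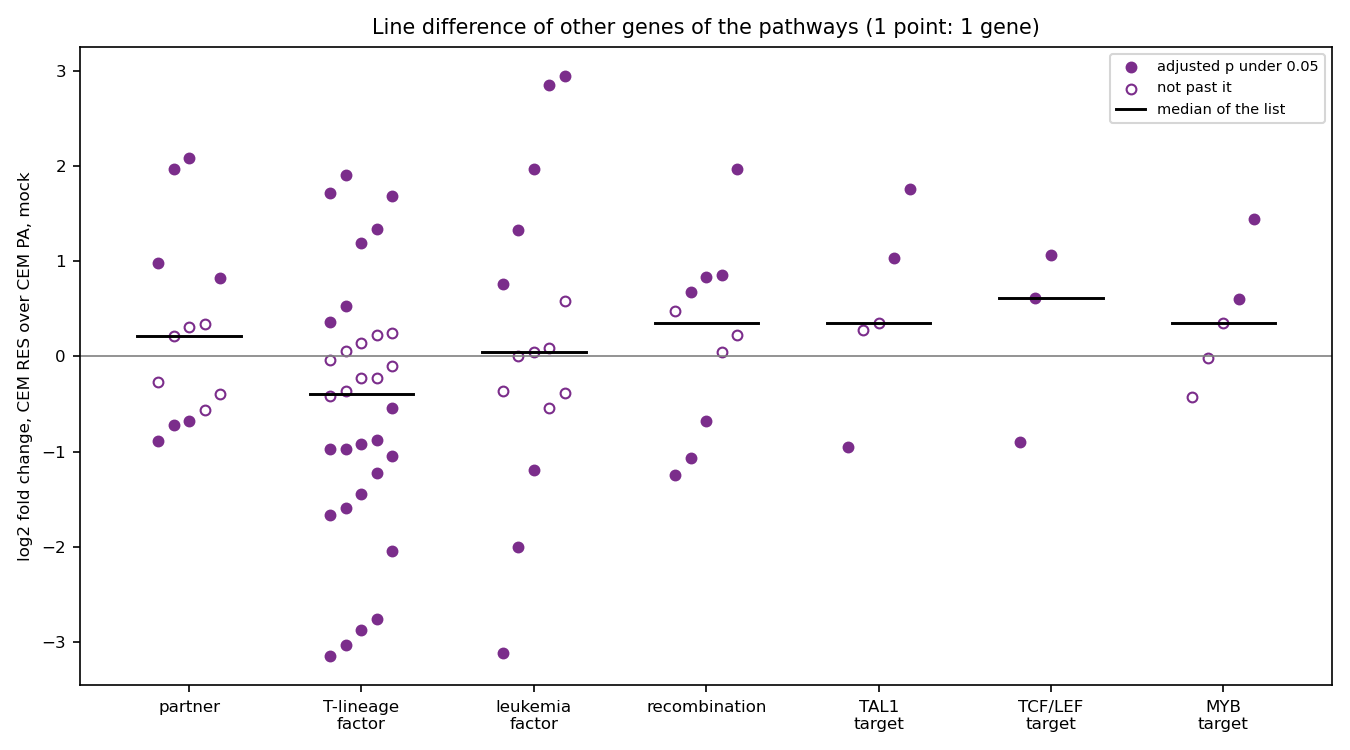
Log2 fold change of mock-treated CEM RES over CEM PA (vertical axis) for the tested genes of the 7 lists, 1 point per gene, filled where the adjusted p was under 0.05, with the median of each list as a bar (a gene in 2 lists is drawn in both). The T-lineage factors have a median of -0.39 with 15 genes lower and 7 higher.

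The genes whose pattern was nearest to a member were taken as those with the lowest root mean square difference of centred log2 signals over the 13 arrays, among 18886 probes above background on all of them. For TCF7 probe 2 these were EIF1AD (0.168), TRIM14 (0.173) and HPS5 (0.178), where the probe itself had a root mean square of 0.715 around its mean. For LEF1 they were ARL2BP (0.108), the glucocorticoid receptor gene NR3C1 (0.122) and FOXO3 (0.127), and GATA3 was near to ZBTB3 (0.186) and HECA (0.226). RAG1 was nearest to PRMT3 (0.236), ABCE1 (0.265) and HNRNPA2B1 (0.272), BCL11B probe 2 to RMI2 (0.141), P2RY8 (0.172) and PFKP (0.174), TAL1 to F2RL3, HMGB3 and PEX7 (0.130 to 0.139) and MYB probe 2 to PWP1, BAG1 and GPATCH3 (0.113 to 0.136).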

How the data were processed

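RNA of 13 samples of CCRF-CEM cells was measured on 1-colour Agilent arrays, read per the submitters' processing notes with Agilent Feature Extraction 10.7.7.1. The authors deposited the scanner's background-subtracted intensity of each spot with 0 or 1 flags of its quality, and a table of quantile normalized log2 values, used here as an alternative (median 5.37 in every column, uncentred, and correlated across probes with the values computed here at 0.999 or more for each array). Here control and outlier spots were left out, log2 intensities were quantile normalized over the 13 arrays, spots of a probe were averaged, and probes were kept (22751 of 34127) that all arrays of 1 or more groups flagged as well above background. Groups came from the sample titles. A model with 4 group means was fitted to all kept probes with limma 3.58.1 in R 4.3.3 (tables and figures in Python 3.11.15), with Benjamini-Hochberg adjustment over all of them and 0.05 as threshold.

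The members and the gene lists were chosen with earlier results of these data known. All member probes are named. Of the lists, the called genes with the largest changes (up to 5 rises and 5 falls a list and comparison) and 9 genes named in any case are given, with CBFB, PAX5, EBF1, CD3D, CD3E, CD3G, CD5, CD7 and CD1A added afterwards, and a few genes that this rule would name are not reported here. The test between probes of 1 gene, a limma fit to differences within an array, was added after seeing the data. Deviations from the group mean of mock and FK866 samples with the same replicate number correlated in all 6 pairs (0.200 to 0.474), so the numbers were taken to pair them, and a fit with the number as a block was an alternative. In CEM PA same-numbered samples also shared a scan session, so pairing and session cannot be told apart there. Mock replicate 3 and FK866 replicate 2, both of session 2, correlated at 0.259. With 2 FK866 arrays their deviations are opposite, so the CEM PA pairs are not independent. The other alternatives were 75th percentile scaling, normexp background, no filter, the deposited table, 1 probe or the mean of probes per gene, only the compared groups, slide or scan session as a block, array quality weights and leaving out each array. Each slide and session held a single line. For the line differences these blocks were therefore fitted as random effects, which do not remove a difference between sessions. The code was tested on simulated data. The number of arrays limits the precision.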

Additional observations from a re-analysis of the deposited data

Results flagged for a closer look

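In FK866-treated CEM RES, replicate 2 had a log2 signal of 16.10 for MYB probe 2, farther from its nearest neighbour (15.98) than the other 3 arrays were from each other. Dixon's criterion picks out about 1 in 20 groups by chance, and 36 groups of 4 arrays were examined.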

How the results depend on the processing

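Of 637 values of called member probes under the alternatives 0 turned sign, and of 1645 values of probes not called 90 did. The response of CEM PA to FK866 was the least stable count. Against 1 called probe, 0 were called with 75th percentile scaling, without the filter, with 1 probe per gene or with the mean of probes per gene. With only the compared groups 0 were called, and 0 to 1 when an array outside FK866-treated CEM PA was left out. In these fits 0.0132% to 1.77% of all probes or genes were called. Slide as a block rests in CEM PA on slide 1, with 1 mock and 1 FK866 array, and cannot decide a call. RUNX1 probe 5 had -0.99 there. With the replicate number as a block, which uses the pairing, 3 were called in CEM PA and 2 instead of 0 for the difference between the responses, while the calls over all probes rose from 348 to 1218 and from 94 to 486. It also added the FK866 line call of RUNX3 probe 1 and removed that of MYB probe 2. Between the lines with mock, 12 calls became 4 of 10 with 1 probe per gene (47.7% of all genes called) and 6 of 10 with the mean of probes (46.9%). They became 11 to 13 when an array was left out (41.5% to 47.2% of all probes). Between the lines with FK866, 12 became 5 of 10 with the mean of probes (34.1% of all genes called) and 8 of 10 with 1 probe per gene (35.5%). They became 14 with array quality weights (45.4% of all probes) or only the compared groups (36.2%), and 9 without the filter (21.3%) or with scan session as a block (31.9%). When an array was left out 6 to 12 were called (18.4% to 38.2% of all probes), with 6 without CEM PA FK866 replicate 1 (18.4%). Scan session as a block removed 4 line calls, those of RUNX1 probe 5 with mock (adjusted p = 0.0502) and of RUNX1 probe 4 (0.0659), TAL1 (0.0568) and MYB probe 2 (0.0503) with FK866, and added none. In CEM RES 0 member probes were called under every alternative run, where 0% to 0.0132% of all probes or genes were called. For the difference between the responses 0 member probes were called when an array outside FK866-treated CEM PA was left out (0.198% to 0.615% of all probes). With 2 FK866 arrays of CEM PA, small responses could not be detected, and scan session and line cannot be told apart.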
